A study of Mus musculus with 3 samples.

Results

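The nuclear-encoded subunits of the respiratory chain were read in RNA-seq libraries of mouse cardiac fibroblasts. Subunits were taken by gene symbol: the numbered Ndufa, Ndufb, Ndufc, Ndufs and Ndufv genes for complex I, Sdha to Sdhd for complex II, the Uqcr genes for complex III, the Cox4 to Cox8 genes for complex IV and the Atp5 genes for complex V. Of 88 protein-coding genes with such symbols, 65 could be named in the tables, out of 15292 named protein-coding entries and 31930 entries in all. They comprised 29 genes of complex I, 4 of complex II, 5 of complex III, 15 of complex IV and 12 of complex V, and all 65 had a value in all 3 comparisons. Of the remaining 23 genes, 15 lay at loci that several entries share, 4 more did so with a span that matched the gene, 3 had an entry of a different span and 1 had no entry at its position.

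The study separated activated fibroblasts of the injured heart by 2 reporter genes and compared them with fibroblasts of uninjured hearts. The library labelled FSP1+ came from FSP1-GFP transgenic mice and the library labelled αSMA+ from aSMA-GFP transgenic mice, both as GFP-positive cells sorted 10 days after myocardial infarction. The library labelled uninjured came from the hearts of WT mice, whose cells were plated for 4 hours before RNA was collected. All mice were 12 weeks old on a C57/BL6 background, and each group had 1 library. The FSP1-GFP sort excluded cells with the endothelial marker CD31 or the leukocyte marker CD45, whereas the αSMA-GFP sort used GFP alone, so the groups differ in reporter, gate and plating as well as in cell population. The study describes each sort as made from the pooled hearts of several injured mice, so the libraries of injured hearts come from pools and not from single animals.

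Levels are FPKM, fragments scaled to transcript length and sequencing depth. With 1 library per group no difference has a replicate check, no test was made, and every value describes these libraries rather than the conditions. A gene is called higher or lower where the ratio of FPKM, with 1 added to both values, reached 2-fold, that is a log2 ratio of 1 or more in size. Since the tables were scaled separately, a comparison uses the values of 1 table only: the same library differed by a factor of 1.15 (FSP1+), 1.19 (αSMA+) or 0.867 (uninjured) between its 2 tables. S100a4, the gene of FSP1, had 30.8 FPKM in the FSP1+ library and 12.0 FPKM in the αSMA+ library. Acta2, the gene of αSMA, had 280 FPKM in the FSP1+ library and 65.003 FPKM in the αSMA+ library, which goes against the label of the αSMA+ library; the libraries are called by their labels throughout. In the table that pairs them, the αSMA+ library had 77.1 FPKM of Acta2 and the uninjured library 95.4 FPKM.

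Complex I takes electrons from NADH and complex II takes them from succinate. Both pass them through ubiquinone to complex III, then through cytochrome c to complex IV, which reduces oxygen. Complexes I, III and IV pump protons, and complex V, the ATP synthase, uses the gradient to make ATP. All complexes but II mix subunits encoded in the nucleus with a few encoded in the mitochondrial genome, so their assembly draws on both sets of transcripts. The heart muscle is rich in these complexes, while fibroblasts have fewer mitochondria.

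Many respiratory genes are known to be bound at their promoters by NRF1, by the ETS factor GABP or by YY1. Promoters of 58 members, 61 in all, were found in the RefSeq table of GRCm38.p6, each spanning 250 bases before to 50 bases after a transcription start. They were searched on both strands for a core of the NRF1 site (GCGCATGCG), of the GABP site (CCGGAAG) and of the YY1 site (AAGATGGCG). The NRF1 core stood in 7 of the 61 member promoters (11.5%) and in 1.75% of all 32851 promoters. The GABP core stood in 13 (21.3%), against 8.86% of all promoters. The YY1 core stood in 5 (8.20%), against 1.40% of all promoters. All 5 of these matches lay after the transcription start, 22 to 35 bases past it. Any of the 3 was found in 22 member promoters (36.1%) and 11.4% of all promoters. The median GC content was 58.3% in member promoters and 52.7% in all promoters, and its part in these shares was not tested. By complex, 10 of 30 promoters of complex I held a match, 2 of 3 of complex II, 3 of 5 of complex III, 2 of 12 of complex IV and 5 of 11 of complex V. A match describes the letters of the window and does not show a bound site.

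One promoter with a match is printed from each complex, for genes whose levels are described further on. That of Uqcrfs1 of complex III, whose window held none of the 3 cores, is printed as well. Capitals mark the matches, on either strand, and all are from GRCm38.p6, written 5′ to 3′ on the gene's strand. The promoters of Uqcr11, Cox6a1 and Atp5k hold the NRF1 core and the GABP core, that of Ndufa8 the NRF1 core and that of Sdhb the GABP core. Among those not printed, Ndufa3 and Ndufv3, which had the highest ratios in FSP1+ over αSMA+, hold none of the cores. Ndufb6, the lowest of complex I there, holds the GABP core. A link between cores and ratios was not tested.
Ndufa8 (chr2:36049289-36049588, minus strand): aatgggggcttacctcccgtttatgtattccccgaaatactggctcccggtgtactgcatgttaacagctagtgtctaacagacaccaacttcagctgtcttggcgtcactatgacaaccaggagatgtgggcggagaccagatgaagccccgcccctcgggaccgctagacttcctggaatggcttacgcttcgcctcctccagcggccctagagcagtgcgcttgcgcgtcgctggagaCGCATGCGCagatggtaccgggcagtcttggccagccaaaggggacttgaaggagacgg
Sdhb (chr4:140961021-140961320, plus strand): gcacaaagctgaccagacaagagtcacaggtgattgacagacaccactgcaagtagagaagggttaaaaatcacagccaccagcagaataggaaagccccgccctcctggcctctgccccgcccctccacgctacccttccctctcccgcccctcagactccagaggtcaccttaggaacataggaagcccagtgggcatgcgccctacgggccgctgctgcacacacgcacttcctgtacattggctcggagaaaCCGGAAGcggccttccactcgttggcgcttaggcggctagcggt
Uqcr11 (chr10:80406772-80407071, minus strand): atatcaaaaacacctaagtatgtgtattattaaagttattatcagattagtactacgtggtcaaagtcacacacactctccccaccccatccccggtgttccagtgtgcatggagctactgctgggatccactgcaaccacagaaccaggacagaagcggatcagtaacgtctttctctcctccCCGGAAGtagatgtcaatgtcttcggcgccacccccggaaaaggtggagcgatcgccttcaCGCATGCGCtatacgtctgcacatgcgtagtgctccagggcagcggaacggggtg
Cox6a1 (chr5:115348909-115349208, minus strand): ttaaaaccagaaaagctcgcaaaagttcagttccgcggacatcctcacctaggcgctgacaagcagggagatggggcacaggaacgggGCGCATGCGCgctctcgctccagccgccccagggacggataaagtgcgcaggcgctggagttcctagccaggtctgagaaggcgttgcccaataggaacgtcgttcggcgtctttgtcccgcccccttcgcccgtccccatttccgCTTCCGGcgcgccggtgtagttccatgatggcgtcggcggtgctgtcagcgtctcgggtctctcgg
Atp5k (chr5:108434350-108434649, minus strand): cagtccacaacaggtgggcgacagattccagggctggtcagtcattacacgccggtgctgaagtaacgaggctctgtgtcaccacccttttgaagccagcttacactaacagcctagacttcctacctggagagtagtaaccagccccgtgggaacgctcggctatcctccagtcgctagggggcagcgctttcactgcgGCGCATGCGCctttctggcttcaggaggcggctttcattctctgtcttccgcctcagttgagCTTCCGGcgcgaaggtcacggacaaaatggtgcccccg
Uqcrfs1 (chr13:30545267-30545566, minus strand): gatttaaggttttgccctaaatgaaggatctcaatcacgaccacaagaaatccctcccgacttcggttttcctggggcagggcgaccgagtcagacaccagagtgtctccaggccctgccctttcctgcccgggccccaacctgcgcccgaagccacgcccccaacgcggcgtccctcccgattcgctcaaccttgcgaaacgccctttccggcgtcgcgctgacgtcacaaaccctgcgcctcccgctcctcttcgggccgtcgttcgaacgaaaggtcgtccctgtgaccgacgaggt

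In the FSP1+ library most nuclear-encoded subunits stood above the αSMA+ library. Of the 65 genes, 31 passed 2-fold upwards in the FSP1+ library, a share of 47.7% against 20.0% of all 10131 genes measured, and 62 had a ratio above 0. A single gene, Cox7b2, was at least 2-fold lower, where 12.6% of all genes were. The median log2 ratio of the members was 0.97, against 0.09 for all genes. Complex II had the highest median (1.30, with 3 of 4 genes past 2-fold), followed by complex I (1.095, 18 of 29), complex III (1.05, 3 of 5), complex V (0.90, 4 of 12) and complex IV (0.82, 3 of 15). The share past 2-fold in complex IV was thus 20.0%, the same as that of all genes. Within complex I alone the ratios ran from 0.58 to 1.95, wider than the gap between the complex medians, so the order of the complexes is a description only.

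**Figure D1:**
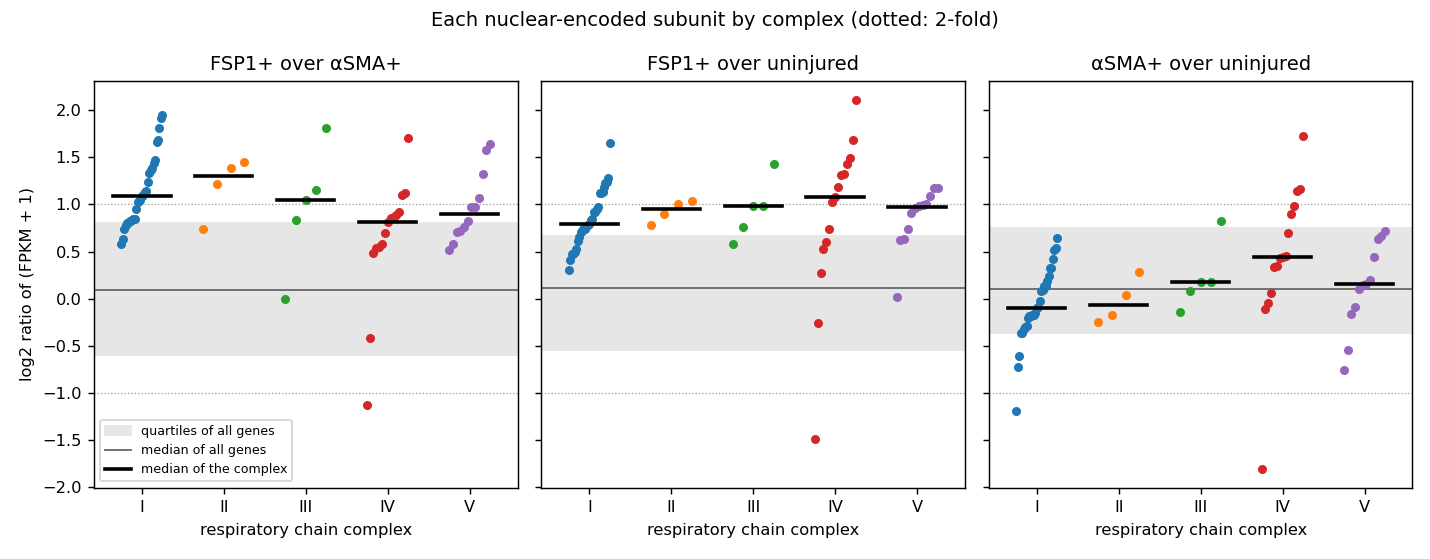
Log2 ratio of FPKM + 1 (vertical axis) of each nuclear-encoded subunit, by complex I to V (horizontal axis), in the 3 comparisons; 1 point is 1 gene, thick bars are complex medians, the grey band runs from the lower to the upper quartile of all genes measured and dotted lines mark 2-fold. The 5 complex medians lie between 0.82 and 1.30 in FSP1+ over αSMA+, between 0.79 and 1.08 in FSP1+ over uninjured and between -0.10 and 0.44 in αSMA+ over uninjured, all with the deposited scaling.

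Against the uninjured library the FSP1+ library was also higher. Here 24 of the 65 genes passed 2-fold upwards (36.9%, against 15.1% of all 10794 genes), 1 of them, Cox8c, being listed at 0 in the uninjured library, and 63 had a ratio above 0. Cox7b2 was again the gene that was at least 2-fold lower, where 12.2% of all genes were. The median log2 ratio was 0.92, against 0.11 for all genes. Complex IV came first (1.08, with 9 of 15 genes past 2-fold), then complex III (0.98, 1 of 5), complex V (0.97, 4 of 12), complex II (0.96, 2 of 4) and complex I (0.79, 8 of 29).

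The αSMA+ library did not stand above the uninjured library in the same way. Of the 65 genes, 3 were at least 2-fold higher (4.62%, against 18.2% of all 10525 genes), namely Cox5a, Cox7a1 and Cox8c, of which Cox8c is listed at 0 in the uninjured library and drops out when 1 FPKM is required in both libraries. There were 2 genes at least 2-fold lower, Cox6b2 and Ndufv3, where 6.38% of all genes were. The median log2 ratio was 0.11, equal to that of all genes at 0.11. Complexes I and II had medians of -0.10 and -0.07, complexes III and V of 0.18 and 0.15, and complex IV of 0.44.

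The size of these ratios depends on the scaling. When each library was rescaled to a fixed total over the named protein-coding entries (TPM), the median of all genes moved by -0.06 in FSP1+ over αSMA+, by -0.56 in FSP1+ over uninjured and by -0.72 in αSMA+ over uninjured. Less the median of all genes, the members' median was then 1.004 in FSP1+ over αSMA+ (0.88 with the deposited scaling), 0.88 in FSP1+ over uninjured (0.81) and -0.09 in αSMA+ over uninjured (0.00). The counts moved more. With this rescaling 34 genes were higher and 1 lower in FSP1+ over αSMA+, where 21.3% of all genes were higher and 16.7% lower. In FSP1+ over uninjured 4 were higher and 1 lower, where 9.42% of all genes were higher and 29.6% lower, and in αSMA+ over uninjured 2 were higher and 13 lower, where 8.46% were higher and 29.7% lower. The members' median in αSMA+ over uninjured was then -0.70, and that of every complex was below 0, so these directions depend on the scaling, while the members' medians of the other 2 comparisons stayed above 0.

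When a ratio was instead taken through the library that the other 2 tables share, 18 genes were higher and 1 lower in FSP1+ over αSMA+, where 15.7% of all genes were higher and 19.1% lower. There were then 42 higher and 1 lower in FSP1+ over uninjured (20.4% and 7.44% of all genes), and in αSMA+ over uninjured 2 higher and 3 lower (14.3% and 9.69%). The members' medians were 0.72 in FSP1+ over αSMA+ and 1.17 in FSP1+ over uninjured. With TPM over all entries, 39 members were higher and 1 lower in FSP1+ over αSMA+ (23.0% and 11.8% of all genes), 11 higher and 1 lower in FSP1+ over uninjured (11.8% and 18.5%), and 2 higher and 6 lower in αSMA+ over uninjured (9.63% and 19.8%). In each of these scalings the share of members higher was above that of all genes in FSP1+ over αSMA+ and below it in αSMA+ over uninjured. In FSP1+ over uninjured the side depended on the scaling. The share was below that of all genes with TPM over protein-coding entries (4 of 65, against 9.42%) and above it with the others.

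At 1.5-fold with the deposited scaling, 55 members were higher and 1 lower in FSP1+ over αSMA+ (32.3% and 25.4% of all genes), 53 higher and 1 lower in FSP1+ over uninjured (28.2% and 23.9%), and 11 higher and 5 lower in αSMA+ over uninjured (30.2% and 15.7%). At 4-fold, Cox7a1 in FSP1+ over uninjured was the only member that passed in any comparison. Of all genes, 3.48% were at least 4-fold higher and 1.80% lower in FSP1+ over αSMA+, 5.07% higher and 0.806% lower in FSP1+ over uninjured, and 5.64% higher and 0.722% lower in αSMA+ over uninjured.

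A share of the protein-coding FPKM within a library divides by the same total as the rescaling over protein-coding entries, so it carries that choice of scaling. The 65 genes together made up 2.66% of it in the FSP1+ library, 1.21% in the αSMA+ library and 1.90% in the uninjured library. On this measure the αSMA+ library was the lowest in every complex. With the deposited scaling the members' summed FPKM was instead 4941 in the αSMA+ library and 4420 in the uninjured library, a ratio of 1.12. That ratio was 0.958 for complex I and ran from 1.005 to 1.39 for complexes II to V. Complex I made up 0.921% in the FSP1+ library, 0.383% in the αSMA+ library and 0.701% in the uninjured library. Complex IV made up 0.770% in the FSP1+ library, 0.388% in the αSMA+ library and 0.491% in the uninjured library. Complex V made up 0.628% in the FSP1+ library, 0.292% in the αSMA+ library and 0.471% in the uninjured library.

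Among the catalytic core subunits of complex I, 4 could be named. Ndufs8, which carries iron-sulphur clusters, had 103 FPKM in the FSP1+ library and 31.5 FPKM in the αSMA+ library, a log2 ratio of 1.68. Ndufv1, which binds NADH and its flavin, had 57.4 FPKM in the FSP1+ library and 27.6 FPKM in the αSMA+ library, a log2 ratio of 1.03. Ndufs3 and Ndufv2 stood at 0.84 and 0.81, so the core had 2 of 4 genes past 2-fold, where 20.0% of all genes were, with a median of 0.94. The 24 accessory subunits, which surround the core and stabilise it, had 15 genes past 2-fold, beside the same 20.0% of all genes, and a median of 1.12. Each core value lay within the range of the accessory subunits, from 0.58 to 1.95.

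The highest ratios of complex I belonged to accessory subunits. Ndufa3, a small membrane subunit, had 266 FPKM in the FSP1+ library and 68.3 FPKM in the αSMA+ library, a log2 ratio of 1.95 and the highest of all members. Ndufv3, which sits beside the NADH-binding subunits, had 100.5 FPKM in the FSP1+ library and 25.9 FPKM in the αSMA+ library (1.92). Ndufa8, whose promoter is printed above, had 116 FPKM in the FSP1+ library and 36.0 FPKM in the αSMA+ library (1.67). The lowest of the complex was Ndufb6, another membrane-arm subunit, with 114 FPKM in the FSP1+ library and 76.1 FPKM in the αSMA+ library (0.58), so all 29 genes lay above 0. Ndufa4, first of the complex by the mean of log2 FPKM + 1 over both libraries and second to Ndufa3 by summed FPKM, had 196 FPKM in the FSP1+ library and 94.7 FPKM in the αSMA+ library (1.04); it carries a complex I symbol but is known as a component of complex IV. Ndufa6, which followed these 2 in abundance, had 181 FPKM in the FSP1+ library and 84.3 FPKM in the αSMA+ library (1.095).

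Over the uninjured library, complex I ranged from 0.31 to 1.65 in the FSP1+ library and from -1.19 to 0.64 in the αSMA+ library. Ndufb7, an intermembrane-space subunit, was the highest in the FSP1+ library, with 142 FPKM against 44.3 FPKM in the uninjured library. Ndufs4, an accessory subunit whose loss causes Leigh-like disease in mice, was the lowest there, with 14.0 FPKM in the FSP1+ library and 11.1 FPKM in the uninjured library. In the αSMA+ library Ndufv3 was the lowest, with 30.7 FPKM against 71.5 FPKM in the uninjured library, and Ndufa1, an X-linked membrane subunit, the highest, with 95.3 FPKM against 60.7 FPKM in the uninjured library. Ndufv3 and Ndufa3 share a pattern: both stood below the uninjured library in the αSMA+ library (-1.19 and -0.72) and above it in the FSP1+ library (0.48 and 0.97).

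Complex II, succinate dehydrogenase, is wholly nuclear encoded and also a step of the TCA cycle. Sdhc, a membrane anchor, had 59.9 FPKM in the FSP1+ library and 21.2 FPKM in the αSMA+ library, a log2 ratio of 1.46. Sdhd, the other anchor, had 61.5 FPKM in the FSP1+ library and 22.9 FPKM in the αSMA+ library (1.39). Sdhb, the iron-sulphur subunit, had 94.8 FPKM in the FSP1+ library and 40.2 FPKM in the αSMA+ library (1.22). Sdha, the flavoprotein that oxidises succinate, was the exception below 2-fold, with 62.7 FPKM in the FSP1+ library and 37.0 FPKM in the αSMA+ library (0.74). In FSP1+ over uninjured Sdhc was again the highest at 1.04, followed by Sdhb at 1.01, Sdhd at 0.90 and Sdha at 0.78. In αSMA+ over uninjured Sdha was the highest at 0.28 and Sdhd the lowest at -0.24, with Sdhb at 0.04 and Sdhc at -0.17.

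In complex III the ratios differed widely between subunits. Uqcr11, a small accessory subunit, had 255 FPKM in the FSP1+ library and 71.8 FPKM in the αSMA+ library, a log2 ratio of 1.81. Uqcrfs1, the Rieske iron-sulphur protein that passes electrons to cytochrome c1, had 57.3 FPKM in the FSP1+ library and 57.3 FPKM in the αSMA+ library, a log2 ratio of 0.00 whose sign depends on the scaling. Between them lay Uqcrc1, a core subunit, with 150 FPKM in the FSP1+ library and 67.1 FPKM in the αSMA+ library (1.15). The hinge protein Uqcrh had 191 FPKM in the FSP1+ library and 107 FPKM in the αSMA+ library (0.83), and Uqcr10 had 183 FPKM in the FSP1+ library and 87.7 FPKM in the αSMA+ library (1.05). Uqcrfs1 also differed from the others over the uninjured library. It was the highest of the complex in the αSMA+ library, with 68.0 FPKM against 37.9 FPKM in the uninjured library (0.83), and the lowest in the FSP1+ library, with 65.8 FPKM against 43.7 FPKM in the uninjured library (0.58), where Uqcr11 was the highest (1.43). Uqcr11 was the lowest of the complex in αSMA+ over uninjured, at -0.14.

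**Figure D2:**
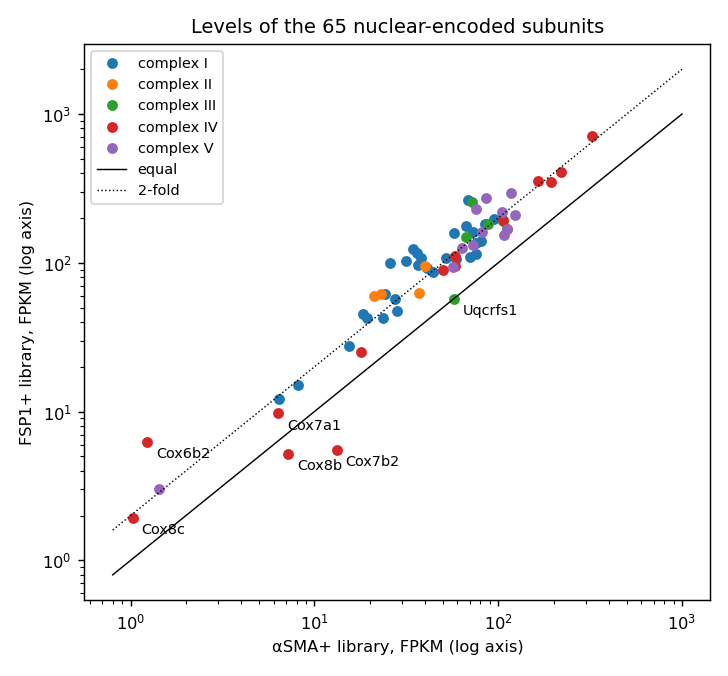
FPKM of the 65 nuclear-encoded subunits in the FSP1+ library (vertical log axis) and the αSMA+ library (horizontal log axis), coloured by complex; the solid line marks equal levels and the dotted line a 2-fold higher level in the FSP1+ library. Most points lie near the dotted line, while Uqcrfs1 lies on the line of equality and Cox7b2 and Cox8b lie under it.

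Complex IV held both the most abundant members and the exceptions. Cox6a1, the ubiquitous form of subunit VIa, was the most abundant of all 65, with 710 FPKM in the FSP1+ library and 326 FPKM in the αSMA+ library, a log2 ratio of 1.12. Cox4i1, a regulatory subunit, had 408 FPKM in the FSP1+ library and 220 FPKM in the αSMA+ library (0.89). Cox6c had 350 FPKM in the FSP1+ library and 193 FPKM in the αSMA+ library (0.85), and the ubiquitous Cox8a had 354 FPKM in the FSP1+ library and 164 FPKM in the αSMA+ library (1.104). The 9 ubiquitous subunits had a narrow range, from 0.48 in Cox7b to 1.12, with 2 past 2-fold, a share near the 20.0% of all genes. Over the uninjured library they ranged from 0.60 to 1.498 in the FSP1+ library, with 7 past 2-fold (15.1% of all genes were). In the αSMA+ library they ranged from 0.06 to 1.17, with 1 past 2-fold (18.2% of all genes were). That gene was Cox5a, a subunit of the matrix side, with 133 FPKM in the αSMA+ library against 58.6 FPKM in the uninjured library and 193 FPKM in the FSP1+ library against 67.6 FPKM in the uninjured library. Cox7a2l, which takes part in joining complexes III and IV, stood at 0.82 in FSP1+ over αSMA+.

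The tissue-restricted isoforms of complex IV were low, and their ratios had both signs. Of 5 named, Cox6b2, known from testis, had 6.28 FPKM in the FSP1+ library and 1.23 FPKM in the αSMA+ library (1.71). Over uninjured it had 1.46 FPKM in the αSMA+ library against 7.61 FPKM in the uninjured library (-1.81), and 7.22 FPKM in the FSP1+ library against 8.79 FPKM in the uninjured library (-0.25). Its ubiquitous partner Cox6b1 lies at a shared locus, as do the restricted isoforms Cox4i2, Cox6a2 and Ndufa4l2. Cox7b2, also known from testis, had 5.51 FPKM in the FSP1+ library and 13.2 FPKM in the αSMA+ library (-1.13), and 6.33 FPKM in the FSP1+ library against 19.6 FPKM in the uninjured library (-1.49). It made up 17.9% of the sum of Cox7b2 and Cox7b in the FSP1+ library, 42.5% in the αSMA+ library and 50.9% in the uninjured library. The transcript of Cox7b shares at least 200 bases with those of 2 other genes, and that of Cox7b2 with none. Reads of Cox7b may thus be divided, and the effect on this share was not tested. The partner Cox7b stood on the other side of 0 in FSP1+ over αSMA+, with 25.3 FPKM in the FSP1+ library and 17.8 FPKM in the αSMA+ library (0.48).

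Cox7a1 and Cox8b are isoforms of heart and skeletal muscle. Cox7a1 had 9.73 FPKM in the FSP1+ library and 6.33 FPKM in the αSMA+ library (0.55). Over uninjured it had the highest ratio of all members in both libraries: 11.2 FPKM in the FSP1+ library against 1.81 FPKM in the uninjured library (2.11), and 7.51 FPKM in the αSMA+ library against 1.57 FPKM in the uninjured library (1.73). It made up 9.31% of the sum with its partner Cox7a2 in the FSP1+ library, 9.82% in the αSMA+ library and 4.36% in the uninjured library; Cox7a2 itself had 94.7 FPKM in the FSP1+ library and 58.1 FPKM in the αSMA+ library (0.69). Cox8b was higher in the αSMA+ library, with 5.18 FPKM in the FSP1+ library and 7.23 FPKM in the αSMA+ library (-0.41), and made up 1.44% of the sum with Cox8a in the FSP1+ library, 4.21% in the αSMA+ library and 2.61% in the uninjured library. Cox8c, known from testis, had 1.93 FPKM in the FSP1+ library and 1.03 FPKM in the αSMA+ library and was listed at 0 in the uninjured library, so no fold is given there.

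**Figure D3:**
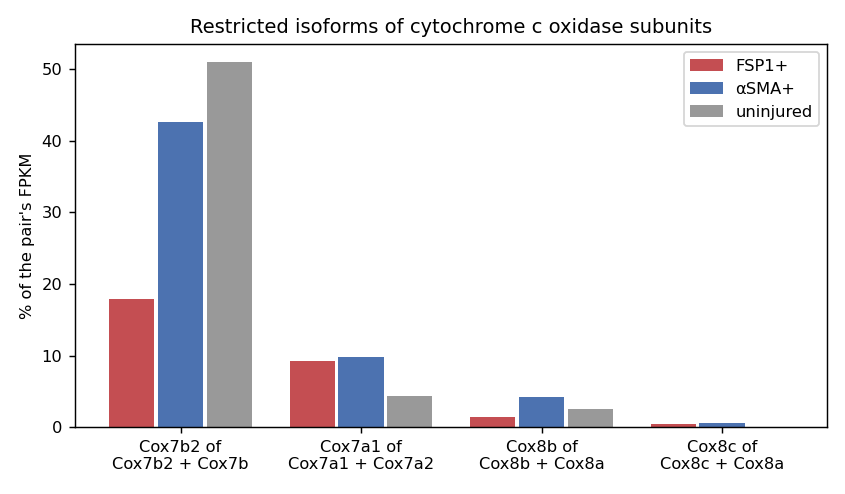
Share of the tissue-restricted isoform in the summed FPKM of the isoform and its ubiquitous partner (vertical axis, percent) for 4 pairs (horizontal axis) in the FSP1+, αSMA+ and uninjured libraries. Cox7b2 takes 17.9% of its pair in the FSP1+ library, 42.5% in the αSMA+ library and 50.9% in the uninjured library, and the other isoforms stay under 10%. Reads of the partner Cox7b may be divided with 2 other genes whose transcripts share at least 200 bases with it.

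In complex V the 3 small membrane subunits Atp5j2, Atp5k and Atp5mpl had a median of 1.07 in FSP1+ over αSMA+ and the 3 subunits of the catalytic head and central stalk one of 0.83. Atp5k, subunit e, had 273 FPKM in the FSP1+ library and 86.4 FPKM in the αSMA+ library, a log2 ratio of 1.65 and the highest of the complex. Atp5e, subunit epsilon of the central stalk and the most abundant gene of the complex, had 297 FPKM in the FSP1+ library and 118 FPKM in the αSMA+ library (1.32). Atp5h and Atp5o of the peripheral stalk stood at 0.76 and 0.97, and Atp5h, with 210 FPKM in the FSP1+ library and 124 FPKM in the αSMA+ library, was among the 3 most abundant. Atp5a1, the alpha subunit of the catalytic head, had 168 FPKM in the FSP1+ library and 112 FPKM in the αSMA+ library (0.58). Over uninjured, Atp5mpl, a small proteolipid, was the highest in the FSP1+ library, with 145 FPKM against 63.7 FPKM in the uninjured library (1.18). Atp5s, coupling factor B, was the lowest, with 3.46 FPKM in the FSP1+ library against 3.39 FPKM in the uninjured library (0.02). Atp5s was taken by its symbol and placed in none of the groups of complex V subunits used here. Atp5k was the lowest of the complex in αSMA+ over uninjured, with 102 FPKM in the αSMA+ library against 174 FPKM in the uninjured library (-0.76).

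The 3 genes Atp5g1, Atp5g2 and Atp5g3 encode the same mature subunit c, which forms the rotor ring, and differ in their import sequences. Atp5g2 had 230 FPKM in the FSP1+ library and 76.1 FPKM in the αSMA+ library (1.58), while Atp5g1 and Atp5g3 stood at 0.71 and 0.52. Atp5g3 had 154 FPKM in the FSP1+ library and 107 FPKM in the αSMA+ library. The sum of the 3 was 476 FPKM in the FSP1+ library and 240 FPKM in the αSMA+ library, a log2 ratio of 0.99. In αSMA+ over uninjured Atp5g3 was the highest of the complex (0.72) and Atp5g2 stood at -0.16. Atp5g2 is the member whose transcript has a near-identical annotated copy elsewhere, so its reads may be divided.

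The subunits encoded in the mitochondrial genome stood the other way round between the injured libraries. Entries for mt-Nd2, mt-Nd4 (which also covers mt-Nd4l), mt-Co1 and mt-Co2 could be read; the entry at mt-Atp6 was below 1 FPKM in all libraries, and 8 further genes were not named. All 4 were lower in the FSP1+ library than in the αSMA+ library, under each scaling tried. mt-Co1 had 1227 FPKM in the FSP1+ library and 4407 FPKM in the αSMA+ library (-1.84), and mt-Nd2 had 366 FPKM in the FSP1+ library and 733 FPKM in the αSMA+ library (-1.001). mt-Nd4 had 530 FPKM in the FSP1+ library and 836 FPKM in the αSMA+ library (-0.66), and mt-Co2 had 2287 FPKM in the FSP1+ library and 3170 FPKM in the αSMA+ library (-0.47). Over uninjured, all 4 were above 0 in both injured libraries with the deposited scaling, with medians of 1.05 in the FSP1+ library and 2.10 in the αSMA+ library. With TPM, 3 of the 4 stayed above 0 in the FSP1+ library and all 4 in the αSMA+ library.

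Set against each other within a library, the summed FPKM of the 65 nuclear-encoded genes was 1.98 times that of the 4 mitochondrial entries in the FSP1+ library, 0.456 times in the αSMA+ library and 1.77 times in the uninjured library. No scaling between libraries enters this ratio. For complex I alone it was 3.38 in the FSP1+ library, 0.839 in the αSMA+ library and 3.72 in the uninjured library. For complex IV it was 0.721 in the FSP1+ library, 0.176 in the αSMA+ library and 0.554 in the uninjured library. The αSMA+ library thus had the lowest ratio in both complexes, while the FSP1+ and uninjured libraries lay near each other.

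**Figure D4:**
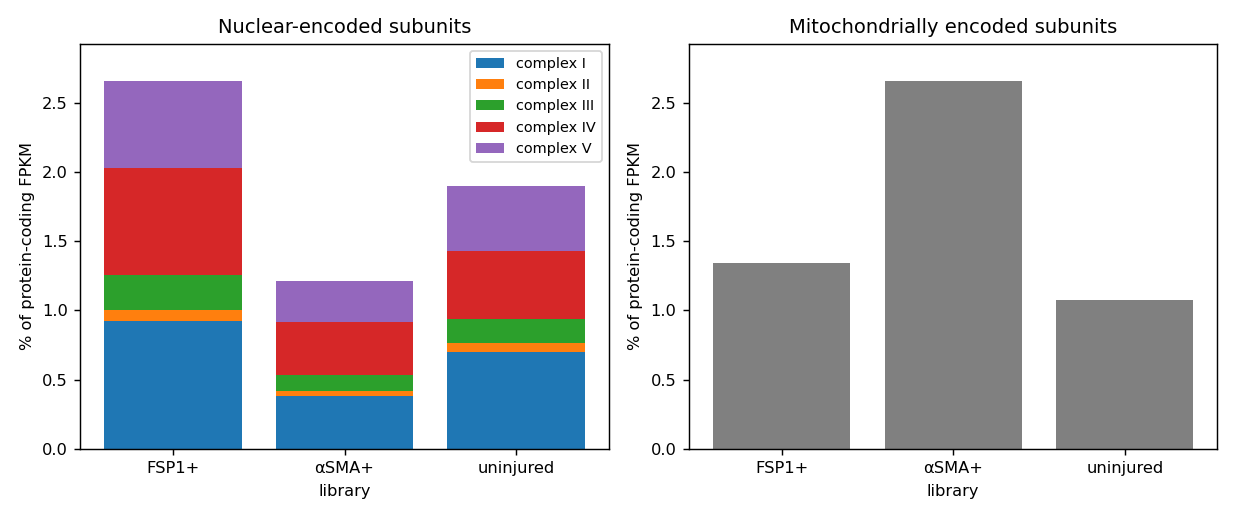
Share of the protein-coding FPKM (vertical axes, percent, from 0) in the FSP1+, αSMA+ and uninjured libraries, on the left for the 65 nuclear-encoded subunits stacked by complex and on the right for the mitochondrially encoded subunits that could be read. The nuclear-encoded share is 2.66% in the FSP1+, 1.21% in the αSMA+ and 1.90% in the uninjured library, and the mitochondrially encoded share is 1.34% in the FSP1+, 2.66% in the αSMA+ and 1.07% in the uninjured library.

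Other mitochondrial genes differed by list in FSP1+ over αSMA+, where 20.0% of all genes were at least 2-fold higher and 12.6% lower. Of 39 assembly factors, 13 were higher in the FSP1+ library and 3 lower, and 31 had a ratio above 0, with a median of 0.73. They included Sdhaf1, an assembly factor of complex II, with 16.5 FPKM in the FSP1+ library and 2.24 FPKM in the αSMA+ library (2.43), and Acad9, needed for complex I assembly, with 179 FPKM in the FSP1+ library and 456 FPKM in the αSMA+ library (-1.34). Cox14, of complex IV assembly, had 234 FPKM in the FSP1+ library and 57.7 FPKM in the αSMA+ library, a ratio past 4-fold. The 14 carriers and enzymes that feed ubiquinone had a median of 0.49, from Coq10b at -1.23 to Coq9 at 1.93, with 2 of 14 higher, a share below that of all genes, and 1 lower. Etfa, the most abundant of these beside Coq10b, stood at -0.40. The 13 TCA cycle genes had a median of 0.30 with 4 higher and none lower; they ran from Dld at -0.75 to Idh2 at 2.30, and the most abundant, Mdh2 and Dlst, stood at 0.53 and 0.11.

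The 22 carriers and membrane proteins had a median of 0.11, near that of all genes and below 0 (-0.14) when the ratio was taken through the uninjured library, with 1 higher and 5 lower. Hspa9, the matrix chaperone of protein import, was the lowest, with 47.5 FPKM in the FSP1+ library and 301 FPKM in the αSMA+ library (-2.64). Atpif1, the inhibitor of the ATP synthase, was the highest, with 115 FPKM in the FSP1+ library and 28.0 FPKM in the αSMA+ library (1.999). The ATP/ADP carriers Slc25a4 and Slc25a5, the most abundant, stood at 0.94 and -0.17. With the deposited scaling none of the 11 biogenesis regulators was 2-fold higher in the FSP1+ library and 4 were lower, with a median of -0.51. Gabpb1, a subunit of GABP, had 15.7 FPKM in the FSP1+ library and 43.0 FPKM in the αSMA+ library (-1.40). Pprc1, a coactivator related to PGC-1, had 7.55 FPKM in the FSP1+ library and 30.3 FPKM in the αSMA+ library (-1.87), and Mterf4, a mitochondrial ribosome factor, was the highest at 0.77.

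Over the uninjured library these lists stood at other levels. Assembly factors had a median of 0.40 in the FSP1+ library and -0.15 in the αSMA+ library, and feeders of ubiquinone 0.30 in the FSP1+ library and -0.05 in the αSMA+ library. TCA cycle genes had a median of 0.67 in the FSP1+ library and 0.74 in the αSMA+ library, and carriers and membrane proteins 0.63 in the FSP1+ library and 0.76 in the αSMA+ library. Biogenesis regulators had a median of -0.40 in the FSP1+ library and 0.63 in the αSMA+ library. Rescaled over the protein-coding entries, the medians of assembly factors and feeders of ubiquinone in FSP1+ over uninjured, and those of all 5 lists in αSMA+ over uninjured, were below 0, while the mitochondrially encoded subunits stayed at 1.30 in αSMA+ over uninjured. The median of all genes was then -0.44 in FSP1+ over uninjured and -0.61 in αSMA+ over uninjured. Less that median, assembly factors stood at 0.40 and feeders of ubiquinone at 0.28 in FSP1+ over uninjured. In αSMA+ over uninjured TCA cycle genes then stood at 0.54, carriers and membrane proteins at 0.57 and biogenesis regulators at 0.47. Assembly factors stood at -0.34 there and feeders of ubiquinone at -0.23.

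**Figure D5:**
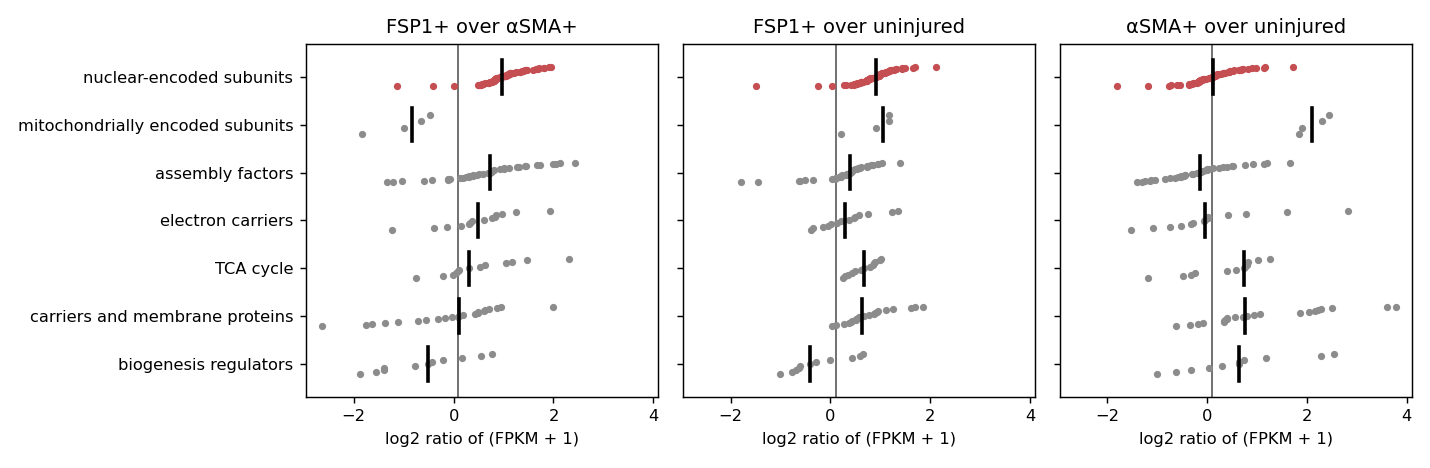
Log2 ratio of FPKM + 1 (horizontal axes) of the genes of 7 mitochondrial lists (rows) in the 3 comparisons; points are genes, red for the nuclear-encoded subunits, thick bars are list medians and the vertical line is the median of all genes. In FSP1+ over αSMA+ the nuclear-encoded subunits have a median of 0.97 and the mitochondrially encoded ones of -0.83, and in αSMA+ over uninjured, with the deposited scaling, the nuclear-encoded ones have 0.11 and the mitochondrially encoded ones 2.10.

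Most members have short transcripts, with a median of 732 bases against 2598 bases for all genes. In FSP1+ over αSMA+, short genes in general stood above long ones: other genes under 1000 bases had a median of 0.38 and those over 4000 bases of -0.16. The 42 members under 1000 bases had a median of 1.04, and the 18 members of 1000 to 2000 bases had 0.85 against 0.40 for 2259 other genes. In FSP1+ over uninjured the other genes under 1000 bases stood at 0.33 and the members at 0.98. The members are also abundant, and abundant genes in general stood higher over uninjured. Among genes whose log2 of FPKM + 1 averaged 5 to 7 over both libraries, the others had a median of 0.55 and the members of 0.92 in FSP1+ over uninjured, and the others 0.68 and the members 0.12 in αSMA+ over uninjured. In FSP1+ over αSMA+ the same class stood at 0.09 for others and 1.03 for members. The part of length and level in the members' ratios was not tested.

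Markers of other cell types also differed between the libraries, and in bulk RNA fewer cells of a type and less RNA per cell cannot be told apart. For the counts below, 20.0% of all genes were at least 2-fold higher and 12.6% lower in FSP1+ over αSMA+. These shares were 15.1% and 12.2% in FSP1+ over uninjured and 18.2% and 6.38% in αSMA+ over uninjured. Of 17 endothelial markers, 16 were at least 2-fold higher in the FSP1+ library than in the αSMA+ library, with a summed level of 1446 FPKM in the FSP1+ library and 358 FPKM in the αSMA+ library. They ranged from Tek at 0.64 to Sox17 at 2.71, and Esam, the most abundant, stood at 2.69. Of 16 macrophage and monocyte markers, 13 were higher, from Ptprc at 0.39 to Aif1 at 2.64, with a sum of 4191 FPKM in the FSP1+ library and 1437 FPKM in the αSMA+ library; the most abundant, Lyz2 and C1qb, stood at 1.18 and 1.83. Of 10 pericyte and smooth muscle markers, 8 were higher, from Pdgfrb at 0.35 to Mcam at 3.17, with a sum of 600.0 FPKM in the FSP1+ library and 192 FPKM in the αSMA+ library; the most abundant, Myh11 and Smtn, stood at 2.43 and 1.24. In FSP1+ over uninjured all 17 endothelial markers were higher (1660 FPKM in the FSP1+ library and 119 FPKM in the uninjured library), all 16 macrophage and monocyte markers (4813 FPKM in the FSP1+ library and 131 FPKM in the uninjured library) and 5 of 10 pericyte and smooth muscle markers (689 FPKM in the FSP1+ library and 303 FPKM in the uninjured library). In αSMA+ over uninjured 13 of 17 endothelial markers and 14 of 16 macrophage and monocyte markers were higher, and 2 of 10 pericyte and smooth muscle markers were lower. The endothelial median there was 1.91 and the macrophage and monocyte median 3.18, where the members' median was 0.11. Pecam1, the gene of CD31, had 157 FPKM in the FSP1+ library and 41.8 FPKM in the αSMA+ library, and Ptprc, the gene of CD45, had 12.1 FPKM in the FSP1+ library and 9.001 FPKM in the αSMA+ library. Over uninjured, Pecam1 had 180 FPKM in the FSP1+ library against 9.96 FPKM in the uninjured library, and Ptprc 13.9 FPKM against 3.79 FPKM. Both were thus higher in the library whose sort excluded cells with CD31 or CD45, which goes against that gate. The reason was not tested. No named marker of these lists was at 0 in any library, and their part in the members' ratios was not tested.

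Cardiomyocyte markers stood the other way in FSP1+ over αSMA+ but not in FSP1+ over uninjured. Beside the counts that follow, 20.0% of all genes were higher and 12.6% lower in FSP1+ over αSMA+. In FSP1+ over uninjured these shares were 15.1% and 12.2%, and in αSMA+ over uninjured 18.2% and 6.38%. Of 12 named, none was at least 2-fold higher in the FSP1+ library than in the αSMA+ library and 5 were lower, with a sum of 137 FPKM in the FSP1+ library and 254 FPKM in the αSMA+ library. In FSP1+ over uninjured 4 of the 11 that reached 1 FPKM were higher, among them Cox7a1, itself a member, and 1 was lower. The sum was 157 FPKM in the FSP1+ library and 87.6 FPKM in the uninjured library. The median was 0.66, so with the deposited scaling they stood above 0 as the subunits did. With TPM over protein-coding entries that median was 0.06, with 6 markers above 0 and 6 below, and the members' median was 0.44. In αSMA+ over uninjured 8 of the 12 were higher, with 301 FPKM in the αSMA+ library and 75.9 FPKM in the uninjured library; Atp2a2, the calcium pump of the sarcoplasmic reticulum and the most abundant of the list, had 139 FPKM in the αSMA+ library and 34.2 FPKM in the uninjured library, and Myl7, an atrial myosin light chain, 61.8 FPKM in the αSMA+ library and 5.25 FPKM in the uninjured library. The list holds Cox7a1 and Cox8b, the muscle isoforms described above, and its part in the levels of the members and of the mitochondrially encoded subunits was not tested. The fibroblast markers that define the labelled cell type were present in all libraries and differed: the median over 12 was 0.10 in FSP1+ over αSMA+, with 4 higher and 5 lower, among them Gsn at -3.09, Dcn at -1.88, Pdgfra at 16.5 FPKM in the FSP1+ library and 323 FPKM in the αSMA+ library, and Col1a1 at 899.5 FPKM in the FSP1+ library and 266 FPKM in the αSMA+ library. Over uninjured, 9 of the 12 were lower in the FSP1+ library and none higher, with a median of -1.22. The list made up 2.55% of the protein-coding FPKM in the FSP1+ library, 7.97% in the αSMA+ library and 7.30% in the uninjured library. Gsn alone held much of these sums, with 24550 of 32470 FPKM in the αSMA+ library and 5336 of 16981 FPKM in the uninjured library. In the FSP1+ library it held 2786 of 9625 FPKM. In αSMA+ over uninjured 4 of the fibroblast markers were lower and 1 higher, with a median of 0.05 that is below 0 under the other scalings. The part of the fibroblast markers in the members' ratios was not tested.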

How the data were processed

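Libraries of FSP1+, αSMA+ and uninjured cardiac fibroblasts were sequenced, 1 per group. Per the labels, a stranded mRNA kit and single reads of 50 bases were used; the paper's methods describe paired-end reads and another annotation. Cuffdiff is named in the submitters' processing notes, with no version given in the sources used here. The authors deposited FPKM values as 3 tables of 31930 entries, each with its own scaling for the 2 libraries it compares. The tables also hold the authors' fold changes, test statistics and p-values, which were not used. An offset of 0.001 in every value was removed.

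The members and gene lists were chosen with earlier results of these data known. Entries were named by position on GRCm38 (RefSeq GRCm38.p6 and GENCODE M21) where no other entry shared the locus and the overlap with a gene reached 0.8 of their joint span, with the next gene under 0.7; this named 17717 entries and left 8265 at shared loci unnamed. Ratios are log2 of FPKM + 1 over genes with at least 1 FPKM in either library, which understates the change of low genes. Called means 2-fold or more. No replicate exists, so no test, SD or adjusted p was computed. Depth is not in the tables: among entries below 0.15 FPKM in both libraries, the most frequent ratio of values was 0.674 in FSP1+ over αSMA+, 0.624 in FSP1+ over uninjured and 0.979 in αSMA+ over uninjured, and a smaller step means a deeper library. Near-identical copies (95% identity over 80% of the transcript) were searched among annotated transcripts, not in the genome: 1 member has one, and 20 share at least 200 bases with another gene's transcript.

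Named are, per complex, the 3 most abundant members and the highest and lowest ratio of each comparison, all members of complexes II and III, members against their complex's sign, tissue-restricted isoforms with partners, the mitochondrially encoded subunits and, from each other list, the 2 most abundant and the extreme genes of FSP1+ over αSMA+. Roles within complexes, other named genes and the classes of transcript level were added after values were seen. Alternatives covered the pseudocount, the filter on low values, the fold, the scaling and the choice of members. Python 3.11.15, pandas 2.3.3 and NumPy 2.4.6 were used.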

Additional observations from a re-analysis of the deposited data

How the results depend on the processing

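No paired analysis was possible because each group has 1 library, and no replicate could be left out. Of 432 values recomputed (24 results under 18 alternatives), 396 stayed within 1.5 times of the count or within 0.585 of the median log2 ratio. The other 36 did not, and no median of 1 or more in size changed sign. No median of αSMA+ over uninjured was that large. There the sign changed for all members under 3 alternatives, and for complexes III, IV and V under 3, 2 and 3. The cause of these shifts was not tested. The alternatives rescaling over protein-coding entries, leaving out members with partial copies, adding loosely matching entries were chosen after seeing the data.

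The members' median in FSP1+ over αSMA+ ran from 0.72 to 1.12 and in FSP1+ over uninjured from 0.44 to 1.17. In FSP1+ over αSMA+, 18 members were higher when the ratio was taken through the uninjured library (15.7% of all genes were), and none was lower with a pseudocount of 5. In FSP1+ over uninjured, 42 were higher through the αSMA+ library (20.4% of all genes), 11 with TPM (11.8%) and 4 with TPM over protein-coding entries (9.42%). In αSMA+ over uninjured, 5 were higher with a pseudocount of 0.1, and 1 was higher and 1 lower with a pseudocount of 5. The share of all genes was not computed with either pseudocount, so those counts cannot be set beside it. In the same comparison 6 were lower with TPM (19.8% of all genes) and 13 with TPM over protein-coding entries (29.7%). There the medians with TPM were -0.52 for all members and -0.72, -0.69, -0.45, -0.19 and -0.47 for complexes I to V, and with TPM over protein-coding entries -0.70 for all members and -0.91, -0.87, -0.63, -0.37 and -0.65.

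At 1.5-fold, 55 members were higher in FSP1+ over αSMA+ (32.3% of all genes were), 53 in FSP1+ over uninjured (28.2%) and 11 in αSMA+ over uninjured (30.2%), with 5 lower in the last (15.7%). At 4-fold, 0 were higher in FSP1+ over αSMA+, 1 in FSP1+ over uninjured and 0 in αSMA+ over uninjured, with 0 lower in each. Without the tissue-restricted isoforms, 0 were lower in FSP1+ over αSMA+ (12.6% of all genes) and in FSP1+ over uninjured (12.2%). Then 1 was higher and 1 lower in αSMA+ over uninjured (18.2% and 6.38%). The unknown number of reads limits the low members, such as Cox8c and Atp5s, most.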
